A study of Homo sapiens with 4 samples.

Results

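A set of 34 mouse genes of the hypoxia response and of glycolysis was read in the host cells of tumours that human breast cancer cells had formed in mice. The genes were taken from a list of names, and all 34 were found among the 32245 mouse gene names in both count tables. They are the glycolytic enzymes Hk1, Hk2, Gpi1, Pfkl, Pfkp, Aldoa, Aldoc, Tpi1, Gapdh, Pgk1, Pgam1, Eno1, Pkm and Ldha, the transporters and flux regulators Slc2a1, Slc2a3, Slc16a3, Pfkfb3, Pfkfb4 and Pdk1, the feedback genes Egln1, Egln3, Kdm3a, Mxi1 and Ankrd37, and the stress genes Bnip3, Bnip3l, Ddit4, Ndrg1, Hilpda, Adm, Ero1l, Mif and Higd1a. They were read in 11940 mouse cells of 16965 barcodes in one pool and in 12925 mouse cells of 17757 barcodes in the other.

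Both pools came from MCF10DCIS.com, a human cell line that forms ductal carcinoma in situ-like lesions, seeded on decellularised mouse mammary matrix. The young pool had matrix from mice of 2 to 3 months and the aged pool had matrix from mice of 18 months or more. After 12 days of culture the seeded matrix was put into the right or left fat pad of Rag1-/- mice, a strain without mature lymphocytes of the T and B lineages, and tumour with adjacent stroma was collected 4 weeks later. The host was Rag1-/- in both pools, its age is not in the labels, and each mouse is described as having carried both kinds of matrix. The study sent 3 samples to sequencing, and the labels do not say how these samples or the mice were divided over the 2 pools. With 1 gene expression library per pool, the age of the matrix, the library and the animals cannot be told apart.

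Each pool is 1 library and the hashing tags were not used, so no test across samples was made and no p-value is given. Every ratio between cell classes is given in both pools, and ranges in parentheses after a ratio are 95% counting intervals, which cover counting error and not the spread between animals. Levels are in CPM, that is, counts of a gene's unique molecular identifiers (UMIs) per 1000000 mouse gene UMIs summed over the cells of a class or cluster. Where values come in pairs, the young pool is first and the aged pool second. A gene counted as measured in a comparison with at least 20 CPM on the higher side and at least 100 UMIs in all.

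When oxygen is short, cells stop hydroxylating the HIF-1 and HIF-2 alpha subunits, which then escape degradation through the VHL ubiquitin ligase and switch on genes with hypoxia response elements. Many of these genes take glucose in, turn it into lactate and keep pyruvate out of mitochondria, while others carry out mitophagy, lipid storage or feedback on the pathway itself. Neutrophils are known to live mainly on glycolysis, to hold few mitochondria and to use HIF-1 alpha for survival, and HIF-1 alpha can also be raised in myeloid cells by inflammatory signals without low oxygen.

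Mouse barcodes held 71193997 and 77058905 gene UMIs, and the median mouse cell had 2285 and 2260 UMIs. Clustering without the 34 genes and 110 further pathway genes gave 25 clusters, and 6 classes named from markers had at least 100 cells in each pool. Neutrophil-like cells made up 79.9% and 76.4% of the cells kept (9541 and 9881 cells), followed by 713 and 1128 fibroblast-like, 592 and 719 monocyte-like, 557 and 580 macrophage-like, 144 and 247 NK- and ILC-like and 151 and 141 endothelial-like cells. Depth differed strongly between classes, from a median of 2035 and 1961 UMIs in neutrophil-like cells to 24671 and 21457 in fibroblast-like cells. A total of 143 barcodes occurred in both pools, of which 94 and 93 fell in 1 unnamed cluster that was left out. In a mouse barcode the median number of human UMIs was 71 and 68, and reads of human genes given to their mouse copies were not tested for. Human barcodes held a median of 214.5 and 234 mouse UMIs and a mean of 671 and 648. Where free RNA was subtracted, the mean was taken off per cell. These UMIs are taken here as the measure of free mouse RNA, although human reads given to mouse genes or parts of mouse cells may be among them. In these UMIs the 34 genes summed to 14355 and 11272 CPM.

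Neutrophil-like cells gave the largest share of their RNA to the 34 genes. Their summed level was 20664 and 18687 CPM, against 12506 and 9825 CPM in macrophage-like, 11230 and 9279.7 CPM in fibroblast-like, 7403 and 7017 CPM in monocyte-like, 6815 and 6164 CPM in endothelial-like and 5637 and 4873 CPM in NK- and ILC-like cells. The median neutrophil-like cell had 1.86% and 1.67% of its UMIs on these genes, with a 10th to 90th percentile of 0.649% to 4.02% and 0.569% to 3.82%, while the medians of the other 5 classes lay between 0.369% and 0.807%. Of the 33 genes measured across classes, 25 were highest in neutrophil-like cells in both pools, where 12% of all 8211 measured genes were. The other 8 were Adm and Pgk1 (fibroblast-like), Ndrg1 and Hk1 (endothelial-like), Mxi1 (monocyte-like), Gpi1 (macrophage-like), and Mif and Pdk1, whose highest class differed between the pools. Aldoc fell below the minimum for this comparison. The count depends on the scaling of the sums and on other settings. It was 32 of 33 with TMM factors, where 31.2% of all genes were highest in neutrophil-like cells. With median-of-ratios factors it was 32 of 33, where 34.4% were, and in both cases Adm alone had another highest class. With only barcodes of at least 98% mouse UMIs the count was 22 of 33, where 13.2% of all genes were. Eno1, Egln1 and Ddit4 then also had another highest class in 1 pool. With free RNA subtracted the count was 24 of 33, where 11.8% were, and Egln1 also had another highest class in the aged pool.

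These levels are shares of a cell's RNA and not amounts per cell. A neutrophil-like cell held on average 50.5 and 43.3 UMIs of the 34 genes out of 2442 and 2315, a macrophage-like cell 163 and 117 out of 13044 and 11906, and a fibroblast-like cell 369 and 247 out of 32824 and 26614. Counted per cell, only Slc2a3, Slc16a3, Pfkfb3 and Ero1l were higher in neutrophil-like than in macrophage-like cells in both pools, and only Slc2a3 and Pfkfb3 were higher than in fibroblast-like cells. Slc2a3 had 0.572 UMIs per neutrophil-like cell in each pool and 0.0916 and 0.107 per macrophage-like cell. The summed level of free RNA lay above that of every class but the neutrophil-like one, and its part in the low levels of the small classes was not tested. Most genes vary between classes, so spread alone sets nothing apart: 31 of the 33 genes differed at least 2-fold between their highest and lowest class in both pools, where 93.5% of all measured genes did.

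**Figure D1:**
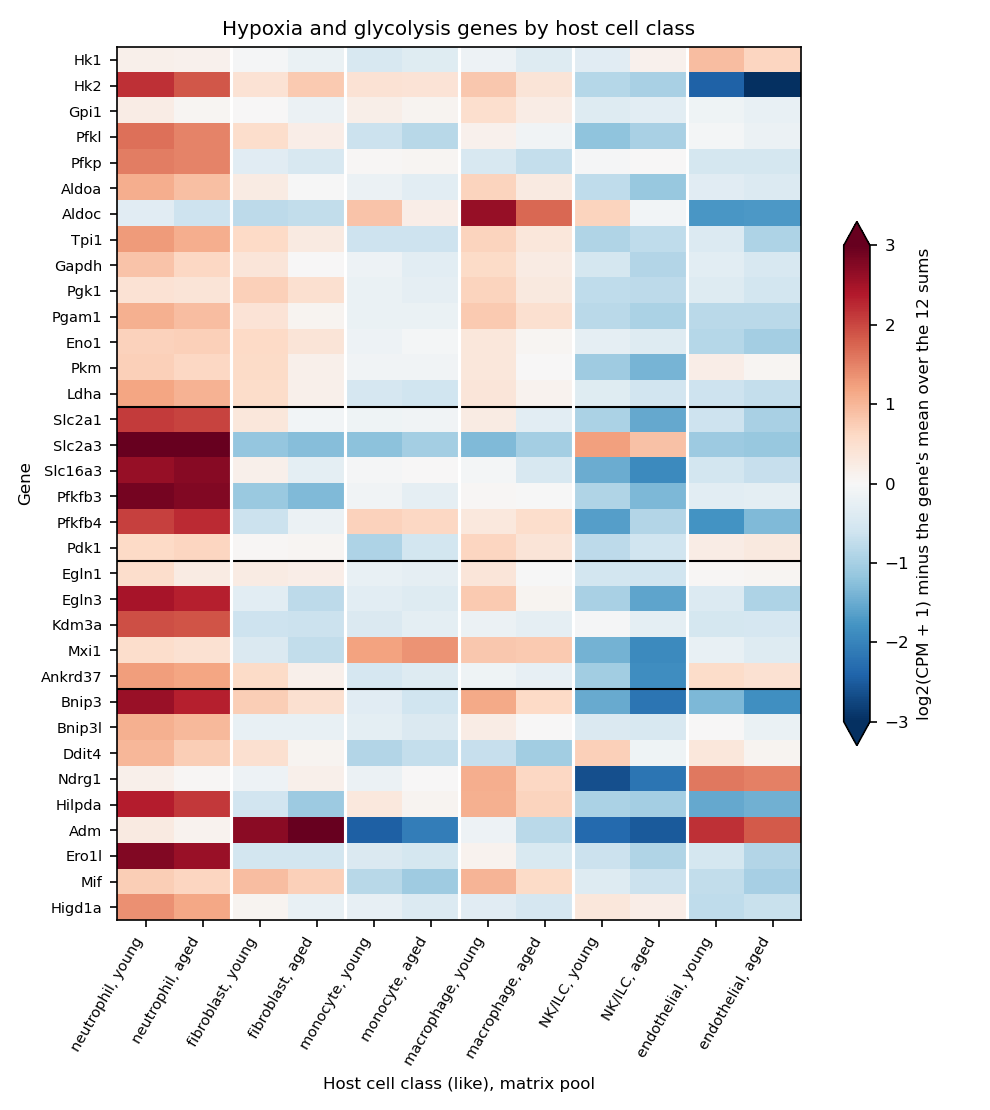
Level of each of the 34 genes (rows) in the summed counts of 6 host cell classes in the young and aged matrix pools (columns), as log2(CPM + 1) minus the gene's mean over the 12 sums. The neutrophil-like columns are the highest for 25 of the 33 measured genes in both pools, and Adm, Ndrg1, Hk1 and Mxi1 have their highest values in other classes.

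Transporters of glucose and lactate were among the genes that set neutrophil-like cells furthest from macrophage-like cells. Slc2a3 (ENSMUSG00000003153), which encodes the high-affinity glucose transporter GLUT3, had 234 and 247 in neutrophil-like, 7.02 and 8.98 in macrophage-like and 46.5 and 35.8 in NK- and ILC-like cells, and 7.33 to 8.997 in the other 3 classes (CPM throughout). Its only other class above 10 CPM was the NK- and ILC-like one, and the neutrophil-like level was 33.3-fold (25.3 to 44.8) and 27.5-fold (21.4 to 35.97) the macrophage-like one. Slc2a1, the widely expressed transporter GLUT1, had 597 and 571 in neutrophil-like, 165 and 112 in macrophage-like and 176 and 133 in fibroblast-like cells, and 47.6 to 129 in the other 3 classes. Slc16a3, the lactate exporter MCT4, had 924 and 1010.1 in neutrophil-like, 144 and 108 in macrophage-like and 167 and 123 in fibroblast-like cells, and 39.3 to 151 in the other 3 classes. The neutrophil-like level of Slc16a3 was 6.42-fold (6.03 to 6.83) and 9.36-fold (8.70 to 10.1) that of macrophage-like cells. Both transporters of glucose and the exporter of lactate therefore had their highest level in neutrophil-like cells in each pool.

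The regulators of glycolytic flux were split. Pfkfb3, whose product makes fructose 2,6-bisphosphate and so activates phosphofructokinase, had 482 and 450.2 in neutrophil-like, 66.9 and 65.02 in macrophage-like and 29.3 and 25.3 in fibroblast-like cells, and 24.8 to 60.4 in the other 3 classes. Its neutrophil-like level was 7.21-fold (6.58 to 7.91) and 6.92-fold (6.30 to 7.63) the macrophage-like one and 16.5-fold (15.2 to 17.8) and 17.8-fold (16.5 to 19.2) the fibroblast-like one. Pfkfb4, a paralogue with kinase and phosphatase activity on the same metabolite, had 53.9 and 61.5 in neutrophil-like, 15.6 and 18.1 in macrophage-like and 7.43 and 10.8 in fibroblast-like cells, and 2.82 to 20.5 in the other 3 classes. Pdk1, the kinase that switches off pyruvate dehydrogenase, was low everywhere, at 9.72 to 31.1 CPM, and was the only one of the 6 flux genes that did not reach 2-fold between neutrophil-like and macrophage-like cells.

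Among the enzymes of the glycolytic chain itself, Hk2, Pfkl and Pfkp were the 3 that passed 2-fold between neutrophil-like and macrophage-like cells in both pools. Hk2, the inducible hexokinase that commits glucose to the cell, had 319 and 255 in neutrophil-like, 122 and 91.1 in macrophage-like, 94.1 and 120.05 in fibroblast-like and 12.1 and 7.33 in endothelial-like cells, and 34.5 to 93.8 in the other 2 classes. Its relative Hk1, the constitutive hexokinase, had a different order in CPM and was highest in endothelial-like cells at 91.1 and 75.1 CPM, against 53.1 and 52.4 CPM in neutrophil-like cells. Pfkl, the liver-type phosphofructokinase subunit, had 231 and 208 in neutrophil-like, 80.1 and 67.5 in macrophage-like and 105 and 84.7 in fibroblast-like cells, and 31.3 to 70.1 in the other 3 classes. Pfkp, the platelet-type subunit, had 354 and 345 in neutrophil-like, 87.3 and 73.7 in macrophage-like and 96.6 and 87.5 in fibroblast-like cells, and 83.8 to 127 in the other 3 classes.

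The abundant enzymes further down the chain were high in every class and differed less. Aldoa, which splits fructose 1,6-bisphosphate, had 1578 and 1369 in neutrophil-like, 1170 and 885 in macrophage-like and 878 and 727 in fibroblast-like cells, and 336 to 647 in the other 3 classes. Tpi1, which interconverts the triose phosphates, had 926 and 807 in neutrophil-like, 608 and 479.8 in macrophage-like and 576 and 463 in fibroblast-like cells, and 201 to 285 in the other 3 classes. Pgam1, phosphoglycerate mutase, had 951 and 862 in neutrophil-like, 777 and 633 in macrophage-like and 597 and 480.01 in fibroblast-like cells, and 232 to 395 in the other 3 classes. All 3 were 1.22-fold to 1.68-fold higher in neutrophil-like than in macrophage-like cells. Gapdh ranged over 795 to 2627 CPM across classes and pools, Ldha, which makes lactate from pyruvate, over 467 to 1762, Pkm, pyruvate kinase, over 323 to 1388, and Eno1, enolase, over 196 to 660.3, each with its highest level in neutrophil-like cells in both pools. Pgk1 ranged over 244 to 699 and was highest in fibroblast-like cells, and Gpi1, phosphoglucose isomerase, had the narrowest range at 198 to 365, highest in macrophage-like cells. Aldoc, the brain-type aldolase, reached 28.1 and 14.6 CPM in macrophage-like cells and 0.403 to 7.60 CPM elsewhere. Gapdh, Pgk1, Pgam1, Eno1, Ldha, Aldoa and Mif have near-identical copies in the mouse genome, so reads shared with those copies may have been lost and their levels are uncertain.

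The oxygen sensors and feedback genes followed the neutrophil-like pattern in 4 of 5 cases. Egln3 (ENSMUSG00000035105), which encodes the strongly HIF-induced prolyl hydroxylase PHD3, had 187 and 170.3 in neutrophil-like, 56.98 and 35.05 in macrophage-like and 26.2 and 18.8 in fibroblast-like cells, and 10.3 to 25.98 in the other 3 classes. Egln1, which encodes PHD2, the main oxygen sensor, was flatter at 55.8 to 122 CPM. Kdm3a, a histone demethylase that HIF-1 induces, had 113 and 110.3 in neutrophil-like, 25.6 and 23.8 in macrophage-like and 18.5 and 18.2 in fibroblast-like cells, and 19.7 to 28.1 in the other 3 classes. Ankrd37, a small ankyrin repeat protein and HIF-1 target, had 61.8 and 59.3 in neutrophil-like, 23.1 and 21.1 in macrophage-like and 38.03 and 28.6 in fibroblast-like cells, and 6.20 to 37.9 in the other 3 classes. The exception in CPM, though not with TMM or median-of-ratios scaling, was Mxi1, an antagonist of MYC, which was highest in monocyte-like cells at 150.4 and 166 CPM and had 93.2 and 89.6 CPM in neutrophil-like and 115 and 112 CPM in macrophage-like cells, with 16.5 to 55.2 CPM in the other 3 classes.

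Of the stress genes, Hilpda (ENSMUSG00000043421), whose product blocks the lipase ATGL and lets lipid droplets build up, was the most abundant of the 9 in neutrophil-like cells. It had 1874 and 1586 in neutrophil-like, 758 and 574 in macrophage-like and 243 and 170.2 in fibroblast-like cells, and 124 to 451 in the other 3 classes. Ero1l, the oxidase that supplies disulphide bonds in the endoplasmic reticulum, had 1201 and 1042 in neutrophil-like, 186 and 127 in macrophage-like and 119 and 117 in fibroblast-like cells, and 92.4 to 128 in the other 3 classes. Bnip3, a mitophagy receptor, had 701 and 588 in neutrophil-like, 256 and 176 in macrophage-like and 194 and 161 in fibroblast-like cells, and 24.8 to 91.5 in the other 3 classes. Its relative Bnip3l ranged over 135 to 398 CPM, Higd1a, a mitochondrial survival protein, over 139 to 615 and Ddit4, an inhibitor of mTORC1, over 39.4 to 166, each highest in neutrophil-like cells. Mif, a cytokine, ranged over 267 to 1138 CPM. It was highest in macrophage-like cells in the young pool and in fibroblast-like cells in the aged pool.

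Besides Mif, 2 stress genes had their highest level in CPM in another class, which was the same in both pools. For Ndrg1 this held only in CPM and not with TMM or median-of-ratios scaling. Adm (ENSMUSG00000030790), which encodes the vasodilator peptide adrenomedullin, had 139 and 203 in fibroblast-like, 97.5 and 75.5 in endothelial-like, 24.7 and 21.9 in neutrophil-like and 18.3 and 11.2 in macrophage-like cells, and 2.76 to 4.06 in the other 2 classes. The neutrophil-like level of Adm was 5.61-fold (5.14 to 6.14) and 9.23-fold (8.43 to 10.1) lower than the fibroblast-like one. Ndrg1, a stress-response gene linked to differentiation, had 359.9 and 341 in endothelial-like, 255 and 184 in macrophage-like, 133 and 123 in neutrophil-like and 108 and 134 in fibroblast-like cells, and 18.4 to 121 in the other 2 classes.

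Against macrophage-like cells, 16 of 33 measured genes were at least 2-fold higher in neutrophil-like cells in both pools, where 15.4% of all 5591 measured genes were. None of the 33 was 2-fold lower, where 52.5% of all genes were. The median log2 ratio of the 33 was 0.91 and that of all genes was -1.23. By role, 3 of 13 glycolytic enzymes, 5 of 6 flux genes, 3 of 5 feedback genes and 5 of 9 stress genes were higher. Without macrophage-like cluster 21, 15 of 33 genes were higher and none was lower, where 826 and 2723 of all 5411 genes were. Among the higher genes, Ero1l reached 6.45-fold (6.11 to 6.82) and 8.23-fold (7.69 to 8.81) and Kdm3a 4.42-fold (3.81 to 5.15) and 4.64-fold (3.96 to 5.47).

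Against fibroblast-like cells, 15 of 33 genes were higher, where 18.8% of all 6289 measured genes were, and Adm alone was lower, where 58% of all genes were. The medians were 0.88 for the 33 genes and -1.73 for all genes. Macrophage-like and fibroblast-like cells were close to each other: 3 of 31 genes (Pfkfb3, Mxi1 and Hilpda) were higher in macrophage-like cells, where 15.2% of all genes were, and 2 (Ddit4 and Adm) were lower, where 19.5% were, with a median of -0.01 against -0.13 for all genes. Without macrophage-like cluster 21 the counts were 4 and 1, those of all 6454 genes 1012 and 1393, and the medians 0.23 and -0.22.

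These counts depend on how the sums are scaled. The 15 neutrophil markers alone, S100a8 and S100a9 among them, made up 191560 and 182610 CPM of the neutrophil-like sums. With TMM scaling the median of all genes between neutrophil-like and macrophage-like cells moved from -1.23 to 0.13 and that of the 33 genes from 0.91 to 2.27. Such a factor shifts all genes alike, so the distance between the medians cannot change. The number higher became 32 of 33 against either class, while all genes went from 861 higher and 2934 lower to 2008 and 1774 against macrophage-like cells, and from 1182 and 3645 to 2126 and 2547 against fibroblast-like cells. Under median-of-ratios scaling the number higher was also 32 in both comparisons. Adm was no longer 2-fold lower than in fibroblast-like cells under either scaling.

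The lists of further pathway genes are read against the same shares of all genes, 15.4% higher and 52.5% lower. Of 15 genes of the HIF machinery 11 were measured, of which Hif1a alone was higher in neutrophil-like than in macrophage-like cells, at 688 and 661 against 224 and 233 CPM, and Cul2 and Rbx1, parts of the VHL ubiquitin ligase, were lower. Epas1, which encodes HIF-2 alpha, had 261 and 224 CPM in endothelial-like cells and 0.816 and 1.05 CPM in neutrophil-like cells. Of 39 further hypoxia genes 24 were measured, of which 11 were higher and 4 lower. P4ha1, a collagen prolyl hydroxylase subunit, had 362 and 358 against 112 and 95.7 CPM. Of 22 other glycolysis genes 6 were measured, of which 2 were higher (Slc2a6 and Pgm2) and 2 lower (Ldhb and Slc16a7), and of 7 pentose phosphate genes 5 were measured, of which none was higher and Pgls and Tkt were lower.

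Genes of mitochondrial pyruvate use were lower. Of 27 genes for pyruvate entry and the citric acid cycle 23 were measured, of which none was higher and 22 were lower in neutrophil-like than in macrophage-like cells, where 52.5% of all genes were lower, with a median log2 ratio of -3.0 against -1.23. The list summed to 432 and 449 CPM in neutrophil-like and 2448 and 2249 CPM in macrophage-like cells. Idh2, mitochondrial isocitrate dehydrogenase, had 1.93 and 1.62 against 83.1 and 80.95 CPM, and Pdha1, a pyruvate dehydrogenase subunit, had 12.4 and 11.98 against 63.3 and 56.04 CPM.

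Neutrophil-like cells fell into 12 clusters that differed widely in the 34 genes. The summed level ran from 35858 and 36016 CPM in cluster 13 and 35481 and 34325 CPM in cluster 1 down to 12523 and 11845 CPM in cluster 7 and 10888 and 9759 CPM in cluster 2, and the other 8 lay between 11678 and 23581 CPM. Every neutrophil cluster but 2, 7 and 6 lay above each macrophage-like and fibroblast-like cluster in both pools. Of these, macrophage-like cluster 10 was the highest in the young pool (14484 CPM) and fibroblast-like cluster 15 in the aged pool (12545 CPM). Cluster 6, at 12885 and 11678 CPM, was close to cluster 7. The 2 neutrophil clusters with the highest and the 2 with the lowest sum over both pools were taken further, and since they were picked by this sum, the counts for them are descriptions.

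**Figure D2:**
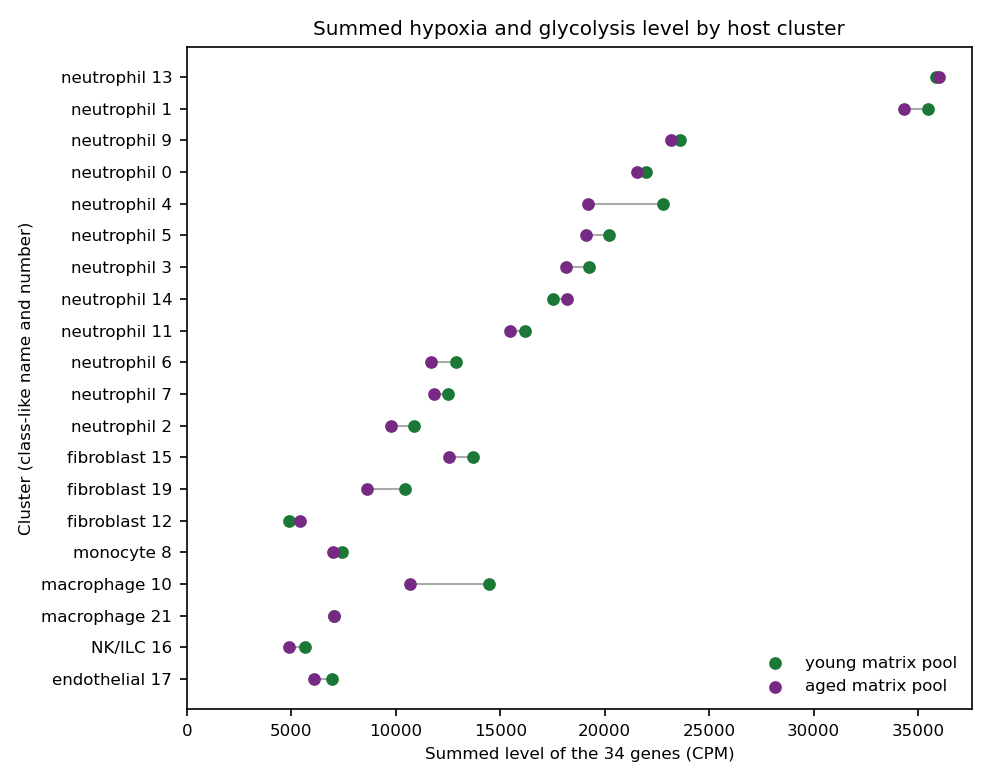
Summed level of the 34 genes in CPM (horizontal axis) for each host cluster of the named classes (vertical axis), with 1 point for the young and 1 for the aged matrix pool. Neutrophil-like clusters 13 and 1 lie between 34325 and 36016 CPM, while fibroblast-like cluster 12 and NK- and ILC-like cluster 16 lie at the low end.

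Genes that led cluster 13, with the 34 genes and the 110 further pathway genes left out, included Nceh1, Plcxd2 and Rgs1. The cluster was higher in 6 of 11 chemokine and 3 of 12 stress markers. Cluster 1 was led by Ccdc126, F10, Stfa2, Naa50, Fabp5 and Cd274, which encodes PD-L1. It was also higher in 3 of 12 stress markers. Hmox1 is among the stress markers and among the further hypoxia genes, and was higher in clusters 13 and 1. Cluster 2 was led by Fgl2, Tnfaip2, Ltb, Anxa1, Hp and Nr4a1 and was higher in 3 of 12 interferon markers. Cluster 7 was led by Ngp, Ifitm6, Ly6g and Retnlg and was higher in 8 of 14 markers of immature neutrophils, among which Ngp encodes a protein of secondary granules. Cluster 13 held 452 and 434 cells, cluster 1 held 1340 and 1135, cluster 2 held 894 and 1067 and cluster 7 held 745 and 752, with median depths of 2154, 1666, 2106 and 3827 UMIs. The 15 neutrophil markers summed to 100480 and 76563 CPM in cluster 13, 147780 and 128220 in cluster 1, 210670 and 206560 in cluster 2 and 302970 and 302990 in cluster 7, and the macrophage markers to 542 and 652, 574 and 638, 416 and 415 and 315 and 268 CPM, so clusters 13 and 1 had less neutrophil marker RNA than clusters 2 and 7, and the part of this difference in the CPM of the 34 genes was not tested.

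In cluster 13, 23 of 33 measured genes were at least 1.5-fold above the other neutrophil-like cells in both pools, where 26% of all genes were, and none was lower, where 13.8% were. The median log2 ratio was 0.84 against 0.19 for all genes. The gene with the highest ratio was Adm, with 108 and 136 CPM against 19.6 and 16.7 CPM, or 5.51-fold (4.54 to 6.67) and 8.18-fold (6.68 to 9.98). Hilpda followed with 6876 and 6838 CPM against 1565 and 1342 CPM, or 4.39-fold (4.29 to 4.49) and 5.09-fold (4.96 to 5.23), and was the most abundant of the 34 genes in this cluster. Ndrg1 was 3.48-fold (3.17 to 3.82) and 3.69-fold (3.32 to 4.10), Ankrd37 2.45-fold (2.09 to 2.86) and 3.35-fold (2.85 to 3.91) and Bnip3l 2.27-fold (2.13 to 2.42) and 2.78-fold (2.60 to 2.97) the level of the other neutrophil-like cells. At the lower end stood Pfkfb4, Slc2a3 and Slc16a3: the ratios were 0.603-fold (0.438 to 0.812) and 0.762-fold (0.559 to 1.02) for Pfkfb4, 0.800-fold (0.703 to 0.907) and 0.641-fold (0.545 to 0.749) for Slc2a3 and 0.949-fold (0.894 to 1.01) and 0.791-fold (0.737 to 0.849) for Slc16a3. Gapdh and Ddit4 followed them, at 1.15-fold (1.12 to 1.19) and 1.24-fold (1.20 to 1.29) and 1.08-fold (0.946 to 1.23) and 1.46-fold (1.26 to 1.69). All 5 feedback genes and 8 of 9 stress genes were higher in cluster 13, against 9 of 13 enzymes and 1 of 6 flux genes (Pdk1).

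Cluster 1 was high in more of the glycolytic chain. There 27 of 33 genes were higher, where 15.8% of all genes were, and Slc16a3 alone was lower, where 19.3% were, with a median of 1.01 against 0.01. The higher genes were 12 of 13 enzymes, all but Hk1, with all 9 stress genes, 4 of 5 feedback genes and 2 of 6 flux genes. Adm again had the highest ratio, with 79.03 and 74.7 CPM against 17.8 and 16.9 CPM, or 4.45-fold (3.73 to 5.28) and 4.43-fold (3.63 to 5.38). Ndrg1 was 2.96-fold (2.73 to 3.21) and 3.69-fold (3.39 to 4.02), Egln1 2.57-fold (2.36 to 2.80) and 2.69-fold (2.43 to 2.98), Hk2 2.36-fold (2.23 to 2.49) and 2.75-fold (2.58 to 2.93) and Bnip3 2.38-fold (2.29 to 2.46) and 2.58-fold (2.48 to 2.69) the level of the rest. Slc16a3 had 549.8 and 538 CPM against 972 and 1056 CPM.

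Clusters 2 and 7 were low in most of the 34 genes. In cluster 2, 27 of 33 were lower, where 14.1% of all genes were, and Slc16a3 alone was higher, where 13.3% were, with a median of -1.13 against 0.03. Hilpda had 387 and 271 CPM against 2016 and 1740 CPM, and Hk2 had 90.1 and 52.04 CPM against 341 and 279 CPM. Adm, Ero1l and Ndrg1 were the other 3 at the low end, with Ero1l at 343 and 269 CPM and Ndrg1 at 38.2 and 34.1 CPM, and Adm at 1.96 and 4.58 CPM. In cluster 7, 25 of 33 were lower, where 28.7% of all genes were, and none was higher, where 12.3% were, with a median of -1.03 against -0.29. Mif had 276 and 228 CPM against 1052 and 991 CPM, and Hilpda had 503 and 482 CPM against 2102 and 1789.5 CPM. Hk2 stood at 95.4 and 72.98 CPM, Ankrd37 at 22.8 and 19.4 CPM and Adm at 3.60 and 1.68 CPM. The 2 highest ratios in cluster 7 were those of the glucose transporter Slc2a3 and the lactate exporter Slc16a3, at 1.37-fold (1.28 to 1.47) and 1.27-fold (1.19 to 1.36) and 1.23-fold (1.19 to 1.28) and 1.28-fold (1.24 to 1.33).

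**Figure D3:**
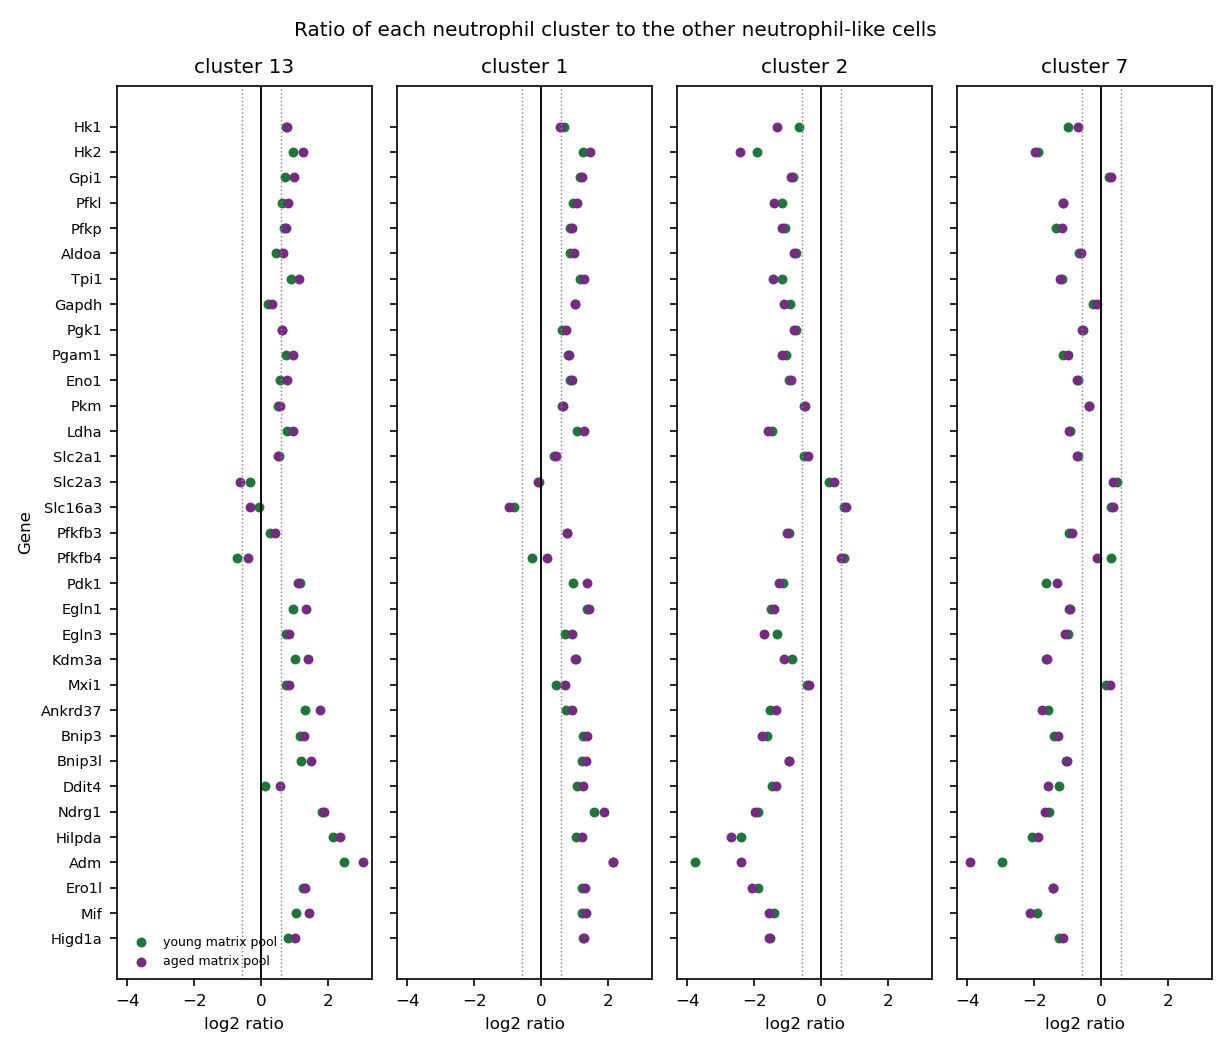
Log2 ratio of each measured gene (rows) in neutrophil clusters 13, 1, 2 and 7 (panels) over all other neutrophil-like cells, with points for the young and aged matrix pools and dotted lines at 1.5-fold either way. Most points lie to the right of 0 in clusters 13 and 1 and to the left in clusters 2 and 7, and Slc16a3 is on the side opposite to most points in all 4 clusters.

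Scaling moved some of these counts. With TMM factors cluster 13 had 12 genes higher and 2 lower, while all genes went from 895 higher and 477 lower to 467 and 829, and median-of-ratios factors gave 13 and 1. In cluster 2 all genes went from 445 higher and 471 lower to 287 and 592 and in cluster 7 from 409 and 958 to 589 and 655 with TMM, and 28 and 21 of the 33 genes were then lower in them. When only barcodes with at least 98% mouse UMIs were kept, 14 of 31 genes were lower in cluster 2, where 249 of all 3195 genes were. With the clustering at resolution 0.5 or without the doublet filter, clusters 1 and 13 were matched to 1 and the same cluster, so the border between them rests on these settings.

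The pathway lists varied with the 34 genes in part. Of the further hypoxia genes, 14 of 21 measured were higher in cluster 13 (26% of all genes) and 15 of 21 in cluster 1 (15.8%), while 14 of 19 were lower in cluster 2 (14.1% of all genes) and 17 of 19 in cluster 7 (28.7%), with none the other way in any of these. These list counts are in CPM and were not recomputed with TMM, which lowered the number of members called in cluster 13. P4ha1 had 1057 and 1209.6 CPM in cluster 13, 682 and 792 in cluster 1, 128 and 114 in cluster 2 and 125 and 105 in cluster 7. Hif1a itself hardly differed, at 629 and 602, 681 and 620.3, 663 and 651 and 549 and 559 CPM in the same order. Cited2, a HIF target that competes with HIF-1 alpha for its coactivator, had 636 and 808, 545 and 671, 131 and 117 and 112 and 79.7 CPM.

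The pentose phosphate pathway, which makes the NADPH that the oxidative burst uses, ran the other way. Of its 5 measured genes, 4 were lower in cluster 13 (13.8% of all genes) and all 5 in cluster 1 (19.3%), and all 5 were higher in cluster 7 (12.3%), while in cluster 2 Taldo1 alone was higher and none was lower. G6pdx, its first enzyme, had 13.3 and 4.94 CPM in cluster 13, 6.05 and 1.99 in cluster 1 and 96.3 and 111 in cluster 7. Taldo1, transaldolase, had 284 and 222, 276 and 241 and 976 and 952 CPM.

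Fibroblast-like cells held the next clear split. Cluster 15, led by Timp1, Crabp1, Grem1 and Tnc, had a summed level of 13710 and 12545 CPM, cluster 19 10452 and 8614 CPM, and cluster 12, led by the matrix genes Dcn, Mfap5 and Col3a1, 4886 and 5431 CPM. In cluster 19, 12 of 13 fibroblast markers were found but also 10 of 10 markers of pericytes and smooth muscle, so its class name is uncertain. Between clusters 15 and 12, a pair chosen after these sums were seen, 18 of 30 measured genes were at least 2-fold higher in cluster 15 in both pools, where 7.76% of all genes were, and 2 were lower, where 11.7% were. The median log2 ratio was 1.53 against 0.11 for all genes. Ankrd37 was 9.15-fold (6.39 to 13.6) and 7.99-fold (6.26 to 10.4), Slc2a1 5.22-fold (4.59 to 5.96) and 4.91-fold (4.47 to 5.39), Pgk1 5.83-fold (5.44 to 6.26) and 2.73-fold (2.63 to 2.84) and Eno1 5.12-fold (4.77 to 5.50) and 3.04-fold (2.92 to 3.17) higher. The 2 lower genes were Adm, with 45.9 and 55.3 CPM against 440.4 and 437 CPM, and Hk2, with 61.5 and 63.1 CPM against 191 and 211 CPM. Of these 2 clusters, the one with more Adm and Hk2 thus had the lower sum of the 34 genes. The median cell had 34340.5 UMIs in cluster 15 and 18171.5 in cluster 12, and the part of depth in the ratio was not tested.

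**Figure D4:**
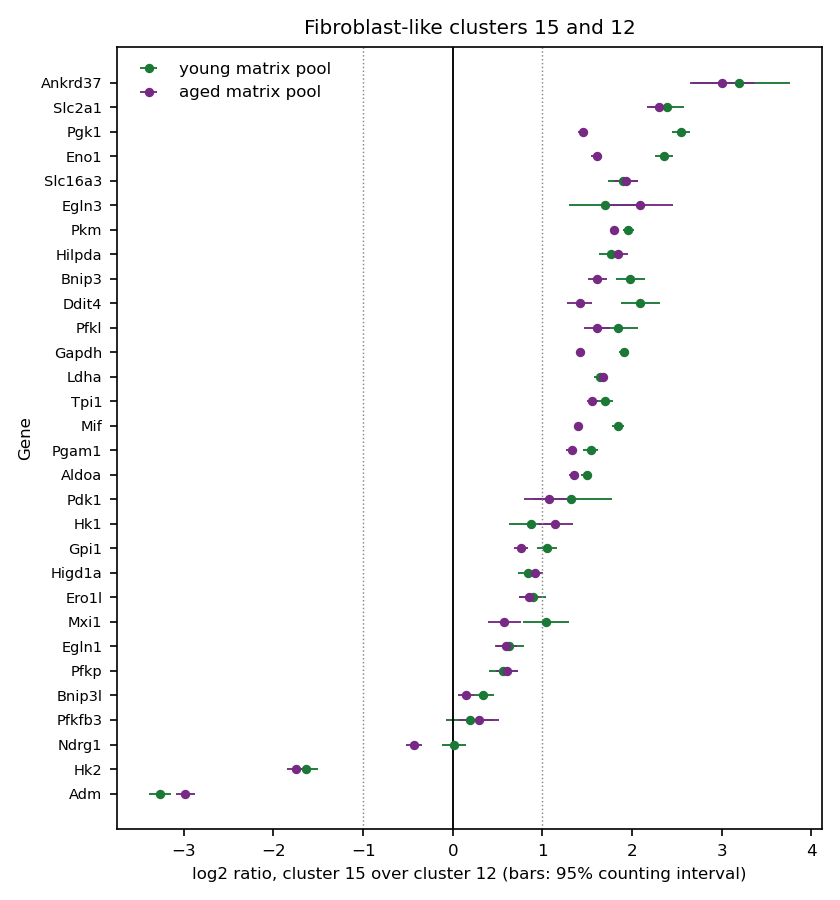
Log2 ratio of fibroblast-like cluster 15 over cluster 12 for each of the 30 measured genes (rows), with points for the young and aged matrix pools and bars for the 95% counting interval. Adm and Hk2 lie to the left of 0 in both pools and 18 genes lie beyond 2-fold to the right.

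Between the aged and the young matrix pool the differences were small beside those between classes. No member passed 1.5-fold in neutrophil-like (of 33, where 0.553% of all genes did), fibroblast-like (of 30, 3.77%), monocyte-like (of 29, 1.14%) or endothelial-like cells (of 29, 3.29%). In macrophage-like cells 2 of 31 passed it, both lower in the aged pool, where 1.27% of all genes did either way. Aldoc had 28.1 CPM in the young and 14.6 CPM in the aged pool (1.92-fold lower in the aged pool, 1.51 to 2.46), from 204 and 101 UMIs. Egln3 had 56.98 CPM in the young and 35.05 CPM in the aged pool (1.63-fold lower in the aged pool, 1.38 to 1.91). With every cell weighted equally 8 of 31 members were lower, where 83 of all 5507 genes were. At resolution 0.5 cells of cluster 10 made up 43.0% of the cluster matched to it, and no monocyte-like class was found. The macrophage-like class there was thus not made of the same cells. In it neither Aldoc nor Egln3 was counted, since Aldoc fell under the minimum and Egln3 had a log2 ratio of -0.55. In NK- and ILC-like cells 1 of 20 passed 1.5-fold, where 4.64% did: Ddit4 had 135 CPM in the young and 75.8 CPM in the aged pool (1.78-fold lower in the aged pool, 1.37 to 2.32). The lower bounds for Egln3 and Ddit4 lie under 1.5-fold.

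Below that threshold, the members leaned to lower values in the aged pool, most fully in macrophage-like cells. There 31 of 31 measured members had a ratio under 1, where 44.6% of all genes did, and the medians were -0.34 and 0.02 on the log2 scale. Slc2a1 had 165 CPM in the young and 112 CPM in the aged pool (1.47-fold lower in the aged pool, 1.34 to 1.61), and Ero1l had 186 CPM in the young and 127 CPM in the aged pool (1.47-fold lower in the aged pool, 1.35 to 1.60). The members nearest to no difference were Mxi1 and Pfkfb3, at 115 and 112 CPM and 66.9 and 65.02 CPM. Macrophage-like cluster 10 alone had 32 of 32 members under 1, against 44.8% of all genes, and its sum was 14484 and 10693 CPM. The other macrophage-like cluster, 21, was led by Ctsk, Acp5 and Atp6v0d2, genes known from osteoclasts, with C1qa also among its 10 leading genes, and had a sum of 7057 and 7064 CPM. It held 76 and 64 of the macrophage-like cells but 26.6% and 23.9% of their UMIs. Without it, 6 of 32 members were more than 1.5-fold lower in the aged pool, where 59 of all 5333 genes were.

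Other quantities moved with the pools in the same cells. The 15 neutrophil markers, all detected, summed to 7956 and 5051 CPM in macrophage-like cells and the 14 macrophage markers to 31506 and 37247 CPM, and the free RNA of the 34 genes was 14355 and 11272 CPM. Mmp9 is among these 15 markers and also among the leading genes of macrophage-like cluster 21. How much of the neutrophil marker sum was the macrophage-like cells' own RNA was not tested. A human barcode held on average 9.63 and 7.30 mouse UMIs of the 34 genes, beside 163 and 117 in a macrophage-like cell. With this free RNA subtracted, 31 of 31 members still had a ratio under 1, where 45.1% of all genes did. Of the members 4 were then 1.5-fold lower, where 42 of all 5511 genes were. The part of neutrophil RNA in the difference was not tested.

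In neutrophil-like cells 28 of 33 members had a ratio under 1, where 34.8% of all genes did, with medians of -0.11 and 0.05. With TMM scaling 31 of 33 members and 68.8% of all genes did. Hk2 had 319 CPM in the young and 255 CPM in the aged pool (1.25-fold lower in the aged pool, 1.21 to 1.29), and Egln1 had 122 CPM in the young and 101 CPM in the aged pool (1.22-fold lower in the aged pool, 1.15 to 1.29). The 2 highest were Pfkfb4, with 53.9 CPM in the young and 61.5 CPM in the aged pool (1.14-fold higher in the aged pool, 1.06 to 1.23), and Slc16a3, with 924 CPM in the young and 1010.1 CPM in the aged pool (1.09-fold higher in the aged pool, 1.07 to 1.11). Within the 12 neutrophil clusters the sum in the aged pool was 0.843 times (cluster 4) to 1.04 times (cluster 14) that in the young pool. The lean was not in all of them. In cluster 0, 16 of 33 members had a ratio under 1 (all genes 40.2%). The count was 11 of 32 in cluster 13 (all genes 45.7%) and 9 of 29 in cluster 14 (all genes 40.8%). In each other neutrophil cluster more members lay under 1 than over it, up to 31 of 33 in cluster 4 (all genes 40.8%). Cluster 1 held 1340 and 1135 cells and cluster 2 held 894 and 1067, and the part of this make-up was not tested.

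In fibroblast-like cells 25 of 30 members had a ratio under 1, where 59.2% of all genes did. Hilpda had 243 CPM in the young and 170.2 CPM in the aged pool (1.43-fold lower in the aged pool, 1.38 to 1.49) and Egln3 26.2 CPM in the young and 18.8 CPM in the aged pool (1.40-fold lower in the aged pool, 1.25 to 1.57), while Adm had 139 CPM in the young and 203 CPM in the aged pool (1.46-fold higher in the aged pool, 1.40 to 1.52) and Hk2 94.1 CPM in the young and 120.05 CPM in the aged pool (1.28-fold higher in the aged pool, 1.21 to 1.35). The make-up of this class differed between pools: cluster 12, which had more Adm and Hk2 than cluster 15, held 290 of 713 cells in the young and 606 of 1128 in the aged pool, and cluster 15 held 355 and 413. Within cluster 12, 10 of 28 members had a ratio under 1 (all genes 64.8%) and the sum was 4886 and 5431 CPM. In the cluster that matched it at resolution 0.5, 24 of 28 members did (all genes 60.9%). Within cluster 15, 23 of 30 did (all genes 53.2%) and the sum was 13710 and 12545 CPM. In these 2 clusters the pools were closer than in the class as a whole, where the sum was 11230 and 9279.7 CPM, but not in the small cluster 19, where it was 10452 and 8614 CPM on 68 and 109 cells.

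In the other 3 classes the members also lay more often under a ratio of 1 than over it. In monocyte-like cells this did not hold with free RNA subtracted, where 13 of 26 lay under 1 (all genes 47.1%). In monocyte-like cells 20 of 29 members had a ratio under 1 (all genes 47.3%), with Bnip3 at 91.5 and 76.6 CPM and Mif at 315 and 267 CPM at one end and Ndrg1 at 105 and 121 CPM and Kdm3a at 21.1 and 23.6 CPM at the other. In endothelial-like cells it was 23 of 29 (all genes 50.8%), with Egln3 at 24.6 and 16.8 CPM and Bnip3 at 44.7 and 31.5 CPM lowest and Higd1a at 139 and 149 CPM and Hilpda at 124 and 132 CPM highest. In NK- and ILC-like cells it was 16 of 20 (all genes 46.6%), with Slc2a1 at 71.3 and 47.6 CPM and, at the other end, Hk1 at 37.8 and 52.4 CPM and Tpi1 at 203 and 225 CPM.

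**Figure D5:**
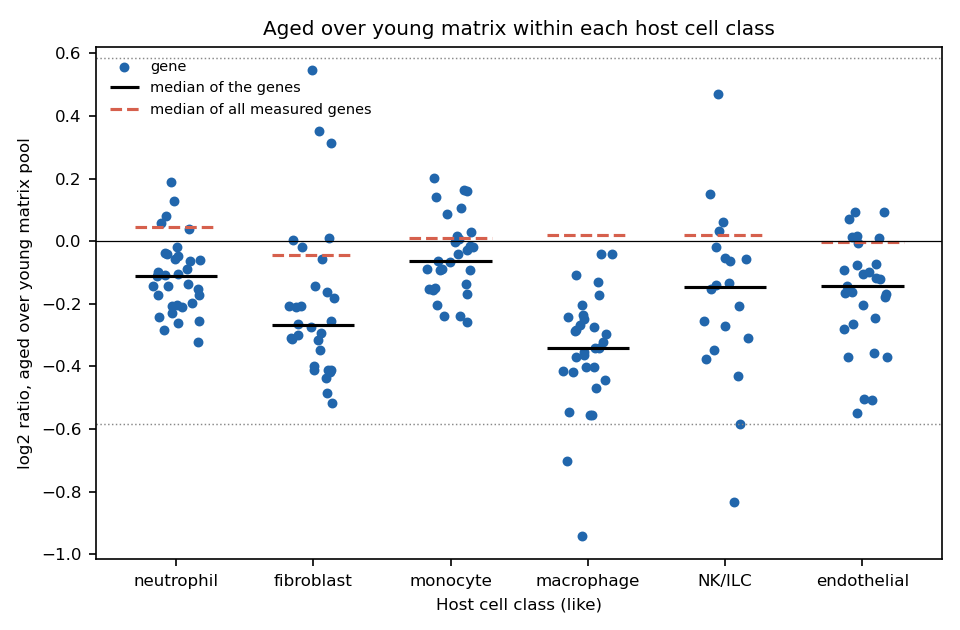
Log2 ratio of the aged over the young matrix pool (vertical axis) for each measured gene (points) within the 6 host cell classes (horizontal axis), with a solid line at the median of the members, a dashed line at the median of all measured genes and dotted lines at 1.5-fold either way. The macrophage-like points all lie below 0, and only Aldoc and Egln3 there and Ddit4 in NK- and ILC-like cells pass the lower dotted line.

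Genes outside the lists that followed the 34 genes most closely were ranked by Pearson correlation of their log2(CPM + 1) with the mean of the members. Over the 12 class-by-pool sums the closest were Rab9 (r = 0.980), Npepps (0.965), Txn1 (0.963), Eea1 (0.955) and Ap3s1 (0.955). Over the 24 sums of the 12 neutrophil clusters in both pools they were Seh1l (0.981), Bsg (0.979), Rnh1 (0.979), Ccdc126 (0.975) and Zfp292 (0.967). The 2 sums of a class or cluster differ only by pool, all sums of a pool share 1 library, and the coefficients describe these sums.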

How the data were processed

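Gene expression of tumour and host cells was measured by 10x Genomics single-cell RNA sequencing in 1 library per pool. The deposited tables hold UMI counts per gene and barcode, made with Cell Ranger 6.0.0 on the human GRCh38 and mouse mm10 genomes, per the submitters' processing notes. How counting treated reads that match several genes is not given in the sources used here. Hashing tags were not used.

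Barcodes with at least 90% of their gene UMIs on mouse genes were kept with at least 500 UMIs, 300 genes and at most 20% mitochondrial UMIs. Scrublet's automatic threshold called 0 doublets in either pool, so scores of 0.25 or more were removed, a value set after the scores were seen (1051 and 1165 cells). Cells of both pools were clustered together with scanpy 1.11.5 (Leiden at resolution 1, leidenalg 0.10.2, on 15 neighbours in 30 components of 2000 variable genes, seed 1) after 144 member and pathway genes had been left out, so no member chose a cluster, but genes that vary with the members took part. Clusters were named from 19 marker sets where at least 3 markers of a set were found and no set had more. Class names were not checked by surface proteins.

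UMIs were summed per class or cluster and pool and given as CPM. Ratios carry exact 95% counting intervals, which assume independent UMIs. A gene counted as higher or lower at 2-fold in both pools between classes, at 1.5-fold in both pools for neutrophil clusters, and at 1.5-fold between pools. The same rule over all measured mouse genes gave the background. The named genes are the 20 measured members with the widest spread over classes, up to 5 at each end per neutrophil cluster, all past 1.5-fold or else 2 at each end between pools, and the 5 genes most like the members. The few fibroblast cluster and pathway genes with values were picked after their values were seen. The members, lists and comparisons were chosen with earlier results of these data known. Alternatives were TMM (edgeR 4.0.16) and median-of-ratios scaling, other minimums, 98% mouse UMIs, equally weighted cells, no doublet filter, free RNA subtraction, members kept in the clustering, resolution 0.5 and, added later, shared barcodes or macrophage-like cluster 21 left out. Aldoa has 2 identifiers, which were summed. Results were computed with python 3.11.15, numpy 2.4.6, scipy 1.17.1 and pandas 2.3.3.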

Additional observations from a re-analysis of the deposited data

How the results depend on the processing

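Over 12 alternatives, chosen partly after the data were seen, no called member turned its direction. With TMM and median-of-ratios scaling alike, 32 members were higher in neutrophil-like than in macrophage-like and than in fibroblast-like cells and 0 were lower than in fibroblast-like cells. The count lower than in macrophage-like cells was 1 with no CPM minimum and with 98% mouse UMIs. The count lower in macrophage-like than in fibroblast-like cells was 1 with a minimum of 100 CPM, with cells weighted equally, at resolution 0.5 and without macrophage-like cluster 21. Cluster 13 had 12 members higher and 2 lower with TMM and 13 and 1 with median-of-ratios scaling. Cluster 1 had 0 lower with 98% mouse UMIs, without the doublet filter and at resolution 0.5. The cluster matched to cluster 1 held 27.7% of its cells without the doublet filter, 52.8% with members kept in the clustering and 88.8% at resolution 0.5. Cluster 2 had 0 higher with TMM, 98% mouse UMIs, no doublet filter and members kept in the clustering, 2 higher with equal weights, free RNA subtracted and shared barcodes left out, and 14 lower with 98% mouse UMIs. Cluster 7 had 1 higher with TMM, median-of-ratios scaling and members kept in the clustering. Only member counts are given here, and the counts of all genes changed with these settings too. The cause was not tested for any of these.

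Between pools, the count lower in the aged pool in macrophage-like cells was 4 with TMM, 5 with median-of-ratios scaling, 8 with equal weights, 4 with free RNA subtracted, 6 without macrophage-like cluster 21, and 0 with a minimum of 100 CPM, where fewer genes were tested, and at resolution 0.5. All genes lower there numbered 46 of 5507 with TMM, 53 with median-of-ratios scaling and 83 with equal weights. They numbered 42 of 5511 with free RNA subtracted and 59 of 5333 without cluster 21. With a minimum of 100 CPM they were 12 of 1447, and at resolution 0.5 they were 32 of 5428. In NK- and ILC-like cells 2 members were lower with TMM, median-of-ratios scaling, free RNA subtracted and shared barcodes left out. All genes lower were 77 of 3317 with either scaling, 104 of 3291 with free RNA subtracted and 80 of 3311 without shared barcodes. With equal weights 1 member was higher, where 166 of all 3317 genes were. In fibroblast-like cells 1 was lower with equal weights (73 of all 5918 genes) and without the doublet filter (62 of 5934). In endothelial-like cells 1 was lower with equal weights (161 of 6134). Members with a ratio under 1 in monocyte-like cells numbered 13 of 26 with free RNA subtracted (all genes 47.1%) and 13 of 19 with a minimum of 100 CPM (49.5%). With that minimum they numbered 15 of 17 in endothelial-like cells (all genes 52.5%) and 21 of 21 in macrophage-like cluster 10 (47.9%). In fibroblast-like cluster 12 they numbered 4 of 15 (64.1%). At resolution 0.5 they numbered 24 of 28 in the cluster matching cluster 12 (60.9%). In macrophage-like cells they numbered 32 of 34 with no CPM minimum (all genes 44.3%) and 30 of 31 without the doublet filter (44.5%). At resolution 0.5 they numbered 29 of 30 (43.7%). The cluster matching cluster 10 at resolution 0.5 had 27 of 29 (all genes 43.0%), but cells of cluster 10 were only 43.0% of it. At resolution 0.5 no monocyte-like class was found, so it gave no value there.

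No paired analysis was possible because each group has 1 gene expression library. In the NK- and ILC-like class 20 of the 34 genes passed the minimum between pools, against 29 to 33 in the other classes.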
